A study of Mus musculus with 2 samples.

Results

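The Toll-like receptors and their co-receptor gene Cd14 were followed in 2 libraries of RANKL-treated mouse bone marrow cultures, 1 labelled MMP9 KO and 1 labelled control. The 10 genes, all protein-coding, were taken by symbol from a deposited table of 26037 genes, and each had a row. Positions below are those of GRCm38. Cd14, Tlr1, Tlr2, Tlr4, Tlr5 and Tlr6 encode proteins of the cell surface, and Tlr7, Tlr8, Tlr9 and Tlr13 encode receptors of endosomes. Both cultures came from marrow of C57BL/6 mice aged 6 to 8 weeks, kept first in 10% serum with M-CSF at 5 ng/ml, then for 3 days in M-CSF at 30 ng/ml. Both then received RANKL, the cytokine that turns macrophages into bone-resorbing osteoclasts, for 3 days, and they differed by label only in genotype. The column headings add "sh" to the knockout and "NCsh" to the control, which the labels do not explain. The labels and the table give neither the way Mmp9 was lost nor the number of mice pooled. Mmp9, which encodes a matrix metalloproteinase abundant in osteoclasts, had a level of 3.87 in the MMP9 KO library and 139 in the control library.

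Toll-like receptors are membrane proteins of macrophages and related cells that bind molecules of microbes. Ligand binding pairs the receptors and recruits adaptor proteins such as MYD88 and TRIF, which lead through kinases to NF-kB and to interferon regulatory factors. The surface receptors bind lipoproteins, lipopolysaccharide and flagellin, and the endosomal receptors bind nucleic acids after transport by the chaperone UNC93B1. In cultures of osteoclast precursors, Toll-like receptor ligands are known to hold back osteoclast formation when given before RANKL and to favour it afterwards.

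Levels are normalised read counts, which are read numbers multiplied by 1 factor per library and not divided by gene length. Read numbers recovered from the deposited values summed, over the listed genes, to 17741432 in the MMP9 KO library and 20678441 in the control library. With 1 library per genotype there was no test between genotypes, and each fold difference carries an exact 95% interval for counting error only. The reads carry no molecular identifiers and cannot be taken as separate molecules, so these intervals leave out both PCR and culture variation. In these bulk cultures, fewer cells of a type and less RNA per cell cannot be told apart. The labelled cell type, osteoclasts, was checked on 10 marker genes, and all had reads in both libraries. All 10 were lower by at least 2-fold in the MMP9 KO library, against 9.58% of genes with a mean level of at least 1. Mmp9, the targeted gene, is 1 of the 10, and the other 9 had summed levels of 391 in the MMP9 KO library and 6685 in the control library. Among these, Nfatc1 came within 2-fold under each other scaling (log2 ratios of -0.92, -0.91 and -0.81) and after centring by GC content (-0.78), and Calcr with a pseudocount of 5 (-0.63).

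Of the 10 genes, 6 were at least 2-fold higher in the MMP9 KO library, 4 stayed within 2-fold and 0 were lower, counted on the scale of log2(level + 1). Among all genes with a mean level of at least 1, 4.00% were higher and 9.58% lower by this measure, and among genes with a read in either library 2.82% were higher and 6.56% lower. The 6 higher genes were Cd14, Tlr1, Tlr2, Tlr7, Tlr9 and Tlr13. Of the 10 genes 8 had a mean level of at least 1, and Tlr13 reached it only through the MMP9 KO library. Tlr5 and Tlr8 stayed below it.

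**Figure D1:**
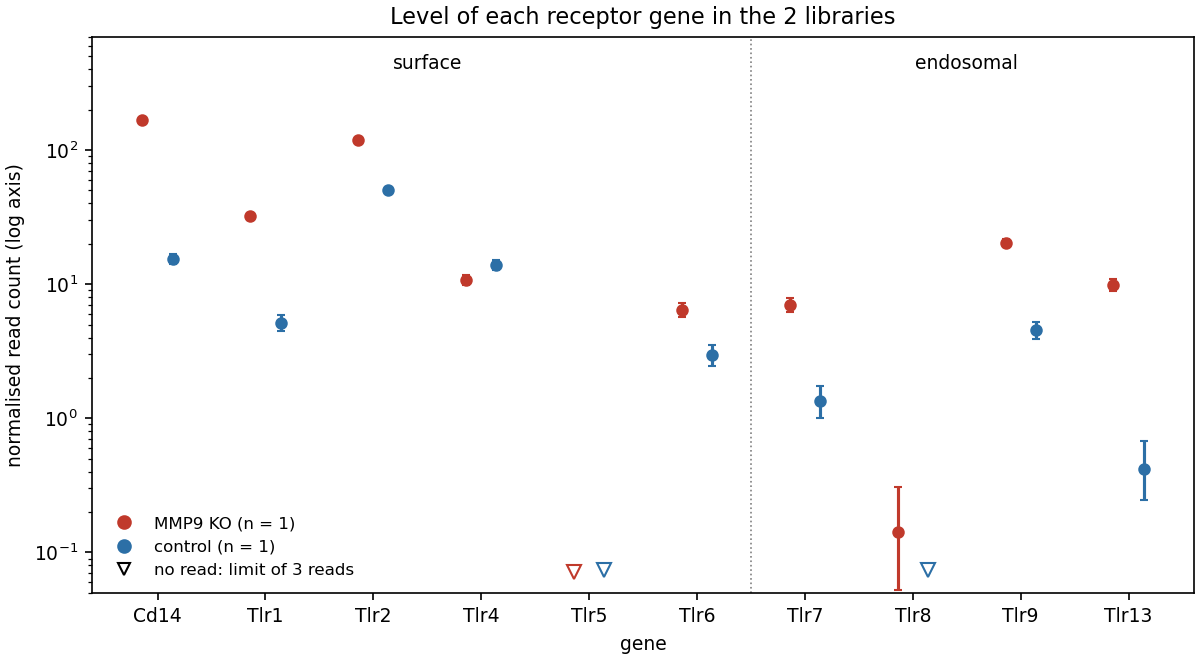
Normalised read count (log axis) of each receptor gene in the MMP9 KO library (red) and the control library (blue), 1 library each. Bars are exact 95% intervals for counting error and open triangles mark the limit of 3 reads for genes with no read. Tlr4 is the only gene with reads whose red point lies below its blue point.

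Cd14 encodes the co-receptor that hands lipopolysaccharide to TLR4 and its partner MD-2. Its gene lies on the minus strand of chromosome 18 and had 7004 reads and a level of 166 in the MMP9 KO library, against 622 reads and a level of 15.5 in the control library. This was the largest fold of the surface group, 10.8-fold higher (9.92 to 11.7). Its log2 ratio of 3.35 ranked 44 from the top among 11126 compared genes. Tlr4 (chromosome 4, 66827584 to 66930284, plus strand), the lipopolysaccharide receptor itself, had 453 reads in the MMP9 KO library and 562 in the control library. Its levels of 10.8 in the MMP9 KO library and 13.96 in the control library differed by 1.30-fold (1.14 to 1.47), lower in the MMP9 KO library. The log2 ratio of Tlr4, -0.35, lay near the median of all compared genes (-0.16), with 36.8% of them below it. With the 2 libraries scaled to equal sums it was -0.08, and the fold of 0.939 had an interval that includes 1 (0.828 to 1.07). With the median of all compared genes set to 0 the Tlr4 fold was 0.872, with an interval below 1 (0.769 to 0.989). Scaling by a trimmed mean of log ratios gave 0.874 (0.771 to 0.991).

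TLR2 recognises bacterial lipoproteins as a pair with TLR1 (triacylated lipoproteins) or TLR6 (diacylated lipoproteins). Tlr2 (chromosome 3, 83836272 to 83841767, minus strand) had 4966 reads and a level of 118 in the MMP9 KO library, against 2031 reads and a level of 50.5 in the control library, 2.34-fold higher (2.22 to 2.46). Tlr1 had a level of 32.0 from 1347 reads in the MMP9 KO library and 5.12 from 206 reads in the control library, 6.25-fold higher (5.39 to 7.27). Tlr6 had a level of 6.44 from 271 reads in the MMP9 KO library and 2.96 from 119 reads in the control library, 2.18-fold higher (1.75 to 2.72). All 3 genes of the lipoprotein receptors thus had higher levels in the MMP9 KO library, and the interval of Tlr1 lies above that of Tlr2. On the log2 scale with a pseudocount Tlr6 stood at 0.91, just within 2-fold, and past it at 1.07 once the median of all compared genes was set to 0.

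Tlr1 and Tlr6 are neighbours on the minus strand of chromosome 5, from 64924679 to 64933563 and from 64952031 to 64960097 in GRCm38. Of the windows of 50 bases in the longest Tlr1 transcript, 15.3% (454 of 2976) also occur in the Tlr6 transcript. No other pair of the 10 genes shares such a window. The labels do not say how reads that match both genes were counted, so the split between Tlr1 and Tlr6 is uncertain. Taken as 1 sum, the pair had a level of 38.4 from 1618 reads in the MMP9 KO library and 8.08 from 325 reads in the control library. The summed level was 4.76-fold higher (4.22 to 5.38).

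Tlr5, the flagellin receptor on chromosome 1 (182954788 to 182976044, plus strand), had 0 reads in either library. At these depths 0 reads allow a level of up to 0.0713 in the MMP9 KO library and 0.0745 in the control library.

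Among the endosomal receptors, TLR9 binds DNA with unmethylated CpG, TLR7 binds single-stranded RNA, and TLR13, a mouse receptor with no human counterpart, binds bacterial ribosomal RNA. Tlr9 (chromosome 9, 106222598 to 106226883, plus strand) had 855 reads and a level of 20.3 in the MMP9 KO library, against 182 reads and a level of 4.52 in the control library, 4.49-fold higher (3.82 to 5.30). Tlr7 (X chromosome, 167304929 to 167330558, minus strand) had a level of 6.98 from 294 reads in the MMP9 KO library and 1.34 from 54 reads in the control library, 5.21-fold higher (3.88 to 7.09). With a pseudocount of 5 the log2 ratio of Tlr7 was 0.92, within 2-fold. Tlr13 (X chromosome, 106143204 to 106160493, plus strand) had a level of 9.86 from 415 reads in the MMP9 KO library and 0.422 from 17 reads in the control library. This was the largest fold of the 9 receptor genes, 23.3-fold higher (14.4 to 40.5), and its wide interval comes from the 17 reads in the control library. Tlr8, next to Tlr7 on the X chromosome (167242696 to 167264329, minus strand), had 6 reads in the MMP9 KO library and 0 in the control library. Against a limit of 3 reads in the control library this was at least 1.91-fold higher, while the exact interval, which also covers counting error of the 6 reads, begins at 1.13. Per kilobase of transcript the Tlr8 level in the MMP9 KO library was 0.0415, beside 1.79 for Tlr7, so that Tlr8 transcripts were barely detected.

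**Figure D2:**
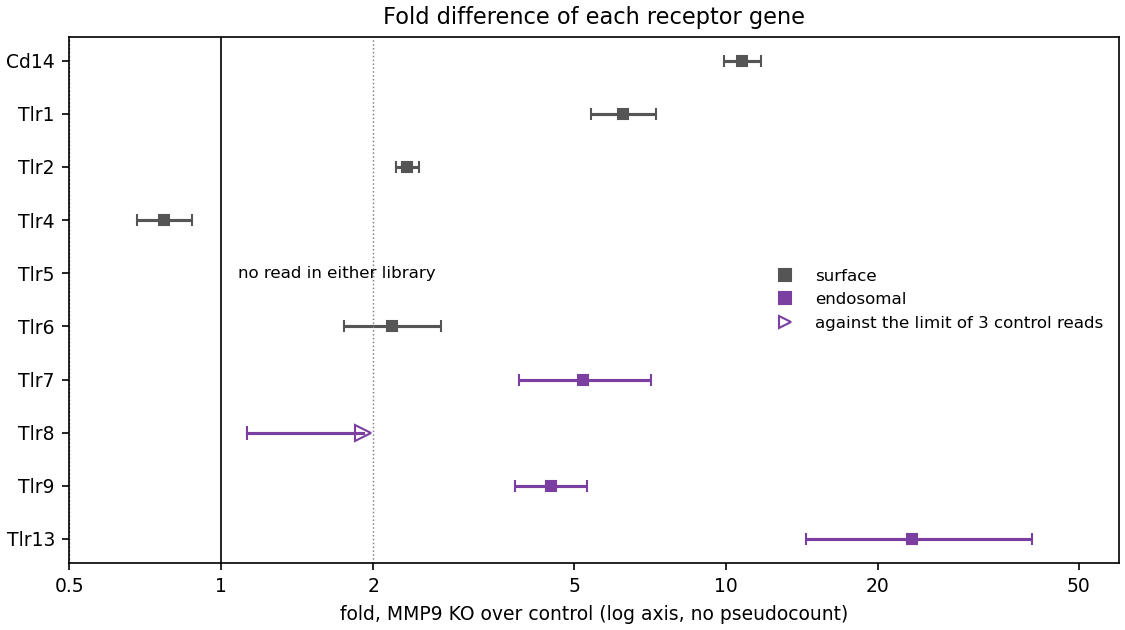
Fold of the MMP9 KO library over the control library for each receptor gene (log axis, no pseudocount), with exact 95% intervals for counting error. Surface genes are grey and endosomal genes purple, and the open triangle is Tlr8 against a limit of 3 control reads (1.91), with its line reaching down to the start of its interval at 1.13. Of the 4 endosomal receptors drawn, the 3 with reads in both libraries lie between 4.49 and 23.3. The surface receptors with reads lie between 0.771 and 6.25, and Cd14 lies at 10.8.

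Set against each other, the median log2 ratio was 1.06 for the 6 surface genes and 1.86 for the 4 endosomal genes, a difference of -0.80. These medians include Tlr5 without a read and Tlr8 with 6 reads, and over the members with a mean of at least 1 they were 1.21 and 1.95, a difference of -0.74. Without Cd14 the surface median was 0.91. The 2 groups overlapped, since Tlr1 lay above Tlr7 and Tlr9. Tlr3, also an endosomal receptor but outside the 4, had a log2 ratio of 1.32, below those of Tlr7, Tlr9 and Tlr13. Tlr11 and Tlr12, without a read, are in neither group. The medians and their difference thus depend on which receptors are listed. Over all compared genes the median log2 ratio was -0.16. In summed levels the 4 endosomal receptors were 5.93-fold higher (5.19 to 6.80) in the MMP9 KO library. The surface genes were 3.79-fold higher (3.65 to 3.94), and 2.31-fold without Cd14 (2.21 to 2.41). These sums rest largely on few genes. In the MMP9 KO library Cd14 gave 7004 of 14041 surface reads, Tlr2 4966 of the 7037 without Cd14, and Tlr9 855 of 1570 endosomal reads. The direction of the difference between the groups was the same at each setting tried, but for some settings this could hardly have been otherwise. Each scaling multiplies the whole MMP9 KO library by 1 factor, which shifts both medians nearly alike (difference of -0.80 each time). Leaving out Cd14, the highest surface gene, could not narrow the difference (-0.95). The difference fell in size to -0.33 with a pseudocount of 5, which by construction acts most on low levels. With so few genes and 1 library per genotype the difference is a description.

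Levels of different genes were compared per kilobase of the longest transcript. In the MMP9 KO library the order ran from Cd14 at 101 per kilobase to Tlr2 (39.1), Tlr1 (10.6), Tlr9 (5.84), Tlr4 (2.64), Tlr13 (2.43), Tlr7 (1.79), Tlr6 (1.75) and Tlr8 (0.0415). In the control library it ran from Tlr2 (16.7) to Cd14 (9.42), Tlr4 (3.43), Tlr1 (1.69), Tlr9 (1.30), Tlr6 (0.804), Tlr7 (0.344) and Tlr13 (0.104). Counting intervals of neighbours overlapped for Tlr4 and Tlr13 and for Tlr7 and Tlr6 in the MMP9 KO library, and for Tlr1 and Tlr9 in the control library. Tlr4 thus stood at rank 5 in the MMP9 KO library and at rank 3 in the control library. Per kilobase of coding sequence the order was the same, apart from Tlr6 standing before Tlr7 in the MMP9 KO library. Tlr2 made up 61.0% of the summed level per kilobase of the 9 receptor genes in the MMP9 KO library and 68.6% in the control library. The 4 endosomal receptors among the 9 made up 15.7% in the MMP9 KO library and 7.16% in the control library.

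**Figure D3:**
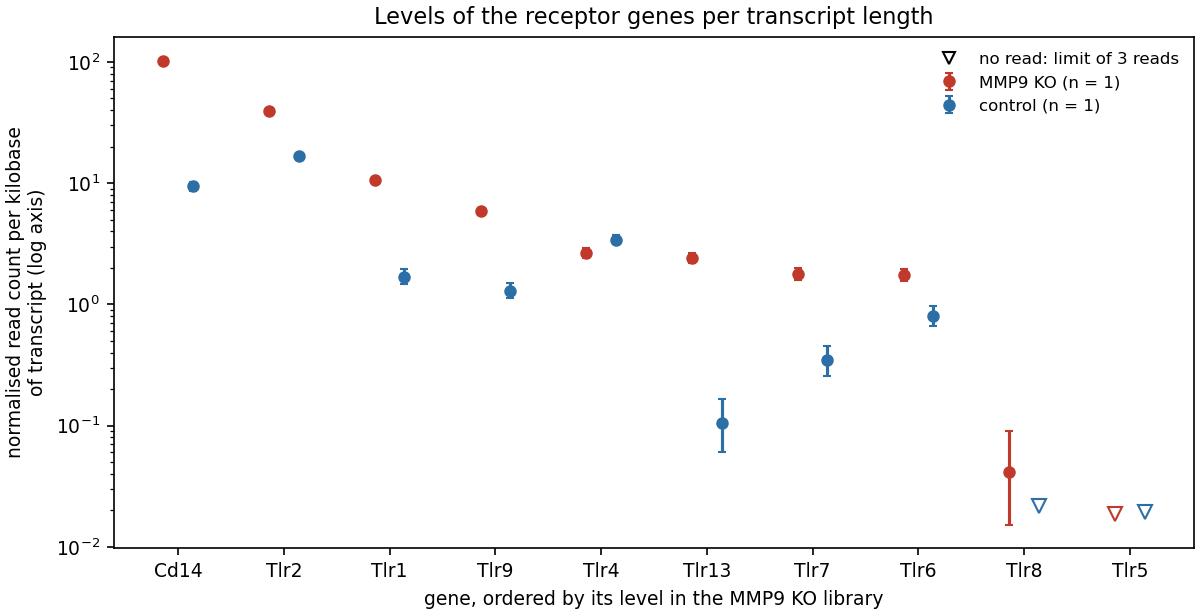
Normalised read count per kilobase of the longest transcript (log axis) for each receptor gene, ordered by the MMP9 KO library (red), with the control library in blue. Bars are exact 95% intervals for counting error and open triangles the limit of 3 reads. Tlr4, at 2.64 in the MMP9 KO library, lies above Tlr13 at 2.43 there, while in the control library the 2 genes lie at 3.43 and 0.104.

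By Euclidean distance over the 2 values of log2(level + 1), the genes most like Cd14 were Oas3 (distance 0.36), Ifitm3 (0.65), Oas1a (0.67), Oas1g (0.70) and Oasl1 (0.78). Oas3 had a level of 168 in the MMP9 KO library and 11.8 in the control library, beside Cd14 at 166 in the MMP9 KO library and 15.5 in the control library. Likeness over 2 libraries rests on 2 points per gene.

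Promoter windows, each from 250 bases before to 50 bases after a transcription start, were available from RefSeq (GRCm38.p6) for 7 of the 10 genes, in 9 windows. Those of Tlr2, Tlr9 and Tlr13 are shown because these genes were higher by at least 2-fold in the MMP9 KO library and had a single window. Capitals mark matches, on either strand, to the letters GAGGAA (the core bound by the myeloid factor PU.1), GAAANNGAAA (the interferon-stimulated response element), GGGNNNTTCC (a kappaB site) or TGANTCA (an AP-1 site).
Tlr2 (chr3:83841559-83841858, minus strand): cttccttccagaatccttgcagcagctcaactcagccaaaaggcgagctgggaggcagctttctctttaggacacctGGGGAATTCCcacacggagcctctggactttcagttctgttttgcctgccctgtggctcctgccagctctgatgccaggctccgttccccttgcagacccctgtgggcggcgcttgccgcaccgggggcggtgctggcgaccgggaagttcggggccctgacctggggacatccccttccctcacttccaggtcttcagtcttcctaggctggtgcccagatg
Tlr9 (chr9:106222348-106222647, plus strand): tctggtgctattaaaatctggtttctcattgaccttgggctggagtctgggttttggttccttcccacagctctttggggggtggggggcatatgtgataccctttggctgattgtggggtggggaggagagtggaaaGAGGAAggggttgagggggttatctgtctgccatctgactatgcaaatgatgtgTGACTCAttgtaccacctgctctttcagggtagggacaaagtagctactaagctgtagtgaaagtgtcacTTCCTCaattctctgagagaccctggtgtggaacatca
Tlr13 (chrX:106143025-106143324, plus strand): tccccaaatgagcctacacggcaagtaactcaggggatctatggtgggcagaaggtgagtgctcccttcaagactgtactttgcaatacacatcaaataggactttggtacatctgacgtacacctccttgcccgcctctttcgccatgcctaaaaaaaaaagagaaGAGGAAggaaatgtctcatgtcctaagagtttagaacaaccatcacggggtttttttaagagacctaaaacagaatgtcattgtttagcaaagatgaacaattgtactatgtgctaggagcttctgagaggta
Distances are counted from the RefSeq start, at 83841608 for Tlr2, 106222598 for Tlr9 and 106143275 for Tlr13, which for Tlr2 and Tlr13 lies inside the GENCODE gene given above. Tlr2 held 1 match to the kappaB letters, 173 bases before its start. Tlr9 held 2 matches to the PU.1 letters, 1 on each strand, and 1 match to the AP-1 letters, 58 bases before its start. Tlr13 held 1 match to the PU.1 letters, 83 bases before its start. None of these matches overlapped another. Among all 32851 RefSeq windows of the same length, 28.3% held the PU.1 letters, 5.56% the kappaB letters, 7.81% the AP-1 letters and 3.44% the interferon letters. Of the other windows, the interferon letters occurred only in 1 of the 2 Tlr6 windows, with 2 overlapping matches. A match describes the letters and is not a measured binding site.

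Of the 3 receptors outside the group, Tlr3, the endosomal receptor of double-stranded RNA, had a level of 4.61 in the MMP9 KO library and 1.24 in the control library, 3.71-fold higher (2.71 to 5.17), and within 2-fold with a pseudocount of 5 (log2 ratio of 0.62). Tlr11 and Tlr12 had 0 reads in both libraries.

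Genes of the proteins that work beside the receptors were compared in the same way. The 10 partner genes of the endosomal receptors serve mostly their folding, transport and cleavage, and also include Hmgb1 and Slc15a4. All 10 were within 2-fold, as were 86.4% of all compared genes. The median log2 ratio of the 10 was -0.04. Unc93b1, the chaperone that carries these receptors to endosomes, had a level of 137 in the MMP9 KO library and 151 in the control library. The folding factors Hsp90b1 and Cnpy3 had levels of 419 and 15.3 in the MMP9 KO library, against 402 and 27.5 in the control library. Of the receptor-cleaving proteases, Lgmn had a level of 112 in the MMP9 KO library and 63.8 in the control library. Ctsl had 118 in the MMP9 KO library and 67.0 in the control library, and Ctsb had 429 in the MMP9 KO library and 790.1 in the control library. Lgmn and Ctsl passed 2-fold once both libraries had the same sum (log2 ratio of 1.09 each), and Lgmn also after centring by GC content (1.02).

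Of 6 partners of the surface receptors 5 had a mean level of at least 1, and 2 of these were higher and 1 lower, against 4.00% and 9.58% of all compared genes. Cd36, a scavenger receptor that assists TLR2 with TLR6, had a level of 184 in the MMP9 KO library and 31.0 in the control library, 5.93-fold higher (5.59 to 6.30). Itgam, an integrin chain also counted among the macrophage markers, was 2.23-fold higher (2.10 to 2.37). Cd180, a receptor-like protein that restrains TLR4 in myeloid cells, had 52.1 in the MMP9 KO library and 126 in the control library, 2.42-fold lower (2.30 to 2.55), and came within 2-fold with equal sums (log2 ratio of -0.98). Ly96, which encodes MD-2, the lipopolysaccharide-binding partner of TLR4, had 2.11 in the MMP9 KO library and 2.19 in the control library. Lbp, the gene of the serum protein that delivers lipopolysaccharide, had 0 reads. Of the lipopolysaccharide receptor genes, Cd14 was higher, and Tlr4 and Ly96 were within 2-fold.

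**Figure D4:**
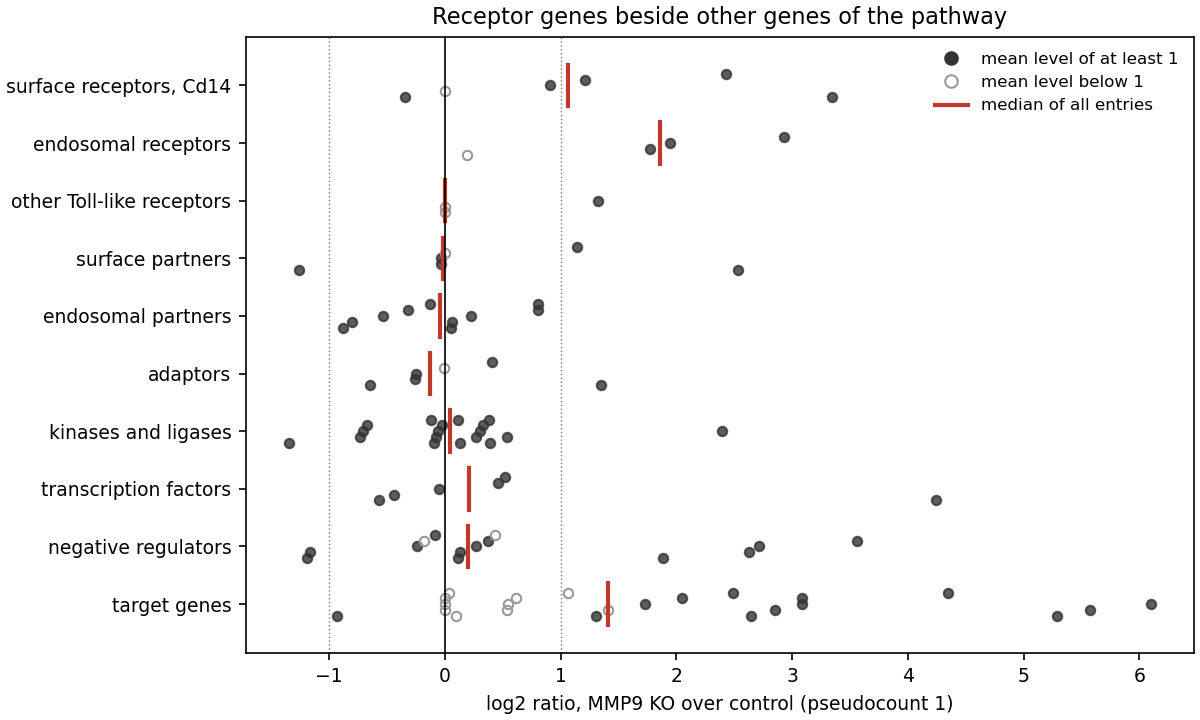
Log2 ratio of the MMP9 KO library over the control library (pseudocount 1) for each gene of the receptor groups and of 8 other lists of the pathway. Filled points have a mean level of at least 1, open points a lower one, red lines are medians over all entries of a list and dotted lines mark 2-fold. The endosomal receptors (median 1.86) and the target genes (1.41) lie to the right of the endosomal partners (-0.04) and the adaptors (-0.13).

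Of 6 adaptors 5 were compared. Against 4.00% of all compared genes, 1 of these 5 was higher. It was Ticam2, which links TLR4 to TRIF, with a level of 3.90 in the MMP9 KO library and 0.919 in the control library, 4.24-fold higher (2.95 to 6.23). It was compared only through the MMP9 KO library, and with a pseudocount of 5 its log2 ratio was 0.59, within 2-fold. Myd88, used by nearly all the receptors, had 45.3 in the MMP9 KO library and 33.9 in the control library. Tirap, which brings MYD88 to surface receptors, had 7.91 in the MMP9 KO library and 9.62 in the control library, and Ticam1, which encodes TRIF, had 12.2 in the MMP9 KO library and 14.8 in the control library. Pik3ap1, an adaptor to phosphoinositide kinase signalling, had 230.2 in the MMP9 KO library and 361 in the control library. Adaptor levels other than that of Ticam2 stayed within 2-fold.

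Of 18 kinases and ubiquitin ligases, 16 were within 2-fold, 1 was higher and 1 lower. Among all compared genes 86.4% were within 2-fold, 4.00% higher and 9.58% lower. Ikbke, a kinase of the interferon branch, had a level of 11.1 in the MMP9 KO library and 1.29 in the control library, 8.57-fold higher (6.42 to 11.6). Traf6, a ligase shared with the RANKL receptor, had 19.2 in the MMP9 KO library and 50.4 in the control library. The receptor-proximal kinase gene Irak4 had 22.9 in the MMP9 KO library and 24.2 in the control library, Irak1 had 45.7 in the MMP9 KO library and 75.3 in the control library, and Irak2 had 44.6 in the MMP9 KO library and 34.0 in the control library. Tab1, which activates the kinase TAK1, had 9.62 in the MMP9 KO library and 16.7 in the control library. Of 6 transcription factors 1 was higher, against 4.00% of all compared genes. It was Irf7, the factor that endosomal receptors use for type I interferon in plasmacytoid cells. Irf7 had a level of 43.3 in the MMP9 KO library and 1.34 in the control library, 32.2-fold higher (24.6 to 43.1). The NF-kB subunit gene Nfkb1 had 97.7 in the MMP9 KO library and 101 in the control library, and Rela had 29.2 in the MMP9 KO library and 39.9 in the control library. Rel, a further NF-kB subunit gene, had 23.3 in the MMP9 KO library and 15.9 in the control library, and Irf3 had 9.55 in the MMP9 KO library and 14.6 in the control library.

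Among 14 negative regulators of the pathway 12 were compared, and 4 were higher and 2 lower, against 4.00% and 9.58% of all compared genes. Of the 4 higher ones Irak3 and Atf3 were compared only through the MMP9 KO library, since their control level was below 1. Irak3, the inhibitory IRAK-M, had a level of 14.9 in the MMP9 KO library and 0.348 in the control library, 43.0-fold higher (25.4 to 79.0). Atf3, a repressor induced by receptor signalling, was 14.9-fold higher (9.83 to 23.5). The other higher ones were Socs3, a feedback inhibitor of cytokine signalling (14.5 in the MMP9 KO library and 1.37 in the control library), and, named after its value was seen, Zc3h12a, an RNase of cytokine transcripts (17.5 in the MMP9 KO library and 4.03 in the control library). Tnfaip3, which encodes the deubiquitinase A20, was lower, with 20.3 in the MMP9 KO library and 46.6 in the control library, but its log2 ratio of -1.16 came within 2-fold under each of 3 other scalings (-0.99, -0.99 and -0.89). The other lower one, named after its value was seen, was Tollip, with 18.3 in the MMP9 KO library and 43.3 in the control library, and it came within 2-fold with equal sums (-0.92). Nfkbia, the inhibitor of NF-kB, had 144 in the MMP9 KO library and 131 in the control library.

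Of 23 target genes of the receptors 13 were compared and 12 of these were higher, against 4.00% of all compared genes. For 6 of the 13 the level in the control library was below 1, so that they were compared only through the MMP9 KO library. Nos2, the inducible nitric oxide synthase gene, had a level of 81.1 in the MMP9 KO library and 0.199 in the control library. Irg1, whose enzyme makes itaconate, had 81.1 in the MMP9 KO library and 0.721 in the control library, and the chemokine gene Ccl4 had 93.4 in the MMP9 KO library and 1.42 in the control library. Il1rn, the compared target that was not higher, had 18.2 in the MMP9 KO library and 35.7 in the control library, and was named after its value was seen. Over all 23 entries the median log2 ratio was 1.41, and it was 2.85 over the compared entries. Adding 5 in place of 1 before taking logs gave a median of 0.68 over all entries, and adding 0.1 gave 2.75. With 5 added, 10 of the 13 were higher, beside 255 of the 11126 compared genes. Tnf, a primary target, had a level of 85.5 in the MMP9 KO library and 9.22 in the control library. The classical targets Il1b and Il6 had few reads. Il1b had 19 in the MMP9 KO library and 0 in the control library, and Il6 had 3 in the MMP9 KO library and 0 in the control library. Ifnb1, the interferon beta gene, was named after its value was seen and had 0 reads in both.

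Genes that mark other cell types were read beside these levels. Of 10 macrophage markers 8 were compared, and 5 were higher and 2 lower in the MMP9 KO library, against 4.00% and 9.58% of all compared genes. The 10 markers had summed levels of 1253 in the MMP9 KO library and 1092 in the control library. These sums rest largely on Csf1r, with 564 in the MMP9 KO library and 751 in the control library, and they hold differences in both directions. The markers below were named after their values were seen. Emr1 was 20.5-fold higher (16.8 to 25.4), Lyz2 8.34-fold (7.96 to 8.73) and Cx3cr1 10.9-fold (7.69 to 16.0). Fcgr1 had 468 reads in the MMP9 KO library and 0 in the control library, and it and Cx3cr1 were compared only through the MMP9 KO library. Cd68 had 60.9 in the MMP9 KO library and 150.2 in the control library. Sfpi1 had 47.5 in the MMP9 KO library and 98.4 in the control library, and its lower call ended with a pseudocount of 5 (-0.98), under each other scaling (-0.86, -0.86 and -0.76) and after centring by GC content (-0.59), where Cd68 also came within 2-fold (-0.99). Neutrophil markers, of which 8 of 12 had 0 reads (Ly6g and S100a9 among them), summed to 1.64 in the MMP9 KO library and 0.497 in the control library. B cell markers summed to 0.333 in the MMP9 KO library and 0.0994 in the control library, and Ms4a1 and Pax5 were at 0 in both. Monocyte markers summed to 2.04 in the MMP9 KO library and 2.81 in the control library, with Ly6c1 and Ly6c2 at 0. Most of this came from Ccr2, with 1.83 in the MMP9 KO library and 2.48 in the control library. Dendritic cell markers summed to 2.47 in the MMP9 KO library and 16.2 in the control library, with Flt3 at 0. The 7 plasmacytoid markers summed to 120 in the MMP9 KO library and 56.1 in the control library, nearly all of it from Bst2 and Tcf4, while the defining Siglech had 1 read in each library. T and NK cell markers summed to 0 in the MMP9 KO library and 0.0497 in the control library, stromal markers to 0.499 in the MMP9 KO library and 0.721 in the control library, and mast and erythroid markers to 0.0238 in the MMP9 KO library and 0.149 in the control library. Osteoclast and macrophage markers thus differed between the same 2 libraries as the receptors, and their part in the receptor differences was not tested.

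Across compared genes the log2 ratio was lower at higher GC content of the transcript, with a Spearman rho of -0.31 over 10707 genes that share both libraries. The 10 transcripts ran from 39.4% GC (Tlr4) to 56.2% GC (Tlr9). Genes in the same GC range had a median log2 ratio of 0.08 for Tlr4 and -0.38 for Tlr9, so that the Tlr9 ratio of 1.95 stands against the lowest median of the 10. After centring by GC content, 6 of the 10 genes were higher by at least 2-fold and 0 lower. Among all compared genes 562 were then higher and 701 lower, against 445 and 1066 without centring.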

How the data were processed

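The labels' protocols describe poly(A)+ RNA sequenced on an Illumina instrument. Alignment with TopHat and the mm9 build come from the submitters' processing notes. The sources used here do not name the counting program, the annotation, strand use or normalisation. The authors deposited log2 values for 26037 genes, titled as normalised RPKM. Converted from log2, at least 99.99% of the values in each library lay at the lowest value or within 0.05 of a whole multiple of 1 step. The step was 0.0238 in MMP9 KO and 0.0248 in control at any gene length. The values were therefore read as read numbers times 1 factor and called normalised read counts. Genes at the lowest value, which is 0.9 of a step, were taken to have no read and were set to 0. Read recovery and intervals were run on data simulated with the same steps, lowest value and counting error that they assume. That checks the code and not whether the deposited values meet these assumptions.

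Counts past 2-fold use log2(MMP9 KO + 1) minus log2(control + 1), which understates low genes. Genes with a mean of at least 1 (11126) counted as compared. Printed folds have no pseudocount, with exact conditional binomial (Clopper-Pearson) 95% intervals, and levels have exact Poisson intervals. Where a library had no read, 3 reads were used as the limit. Lengths, GC content and positions come from GENCODE M21 on GRCm38, another build than mm9, by Ensembl identifier. No annotated exon of another gene overlaps the 10 genes there. Python 3.11.15, numpy 2.4.6, pandas 2.3.3, scipy 1.17.1 and matplotlib 3.10.9 were used. No column of the table was left out. 

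The members and the lists were chosen with earlier results of these data known. Named genes are Mmp9, the 10 members, in each of 8 pathway lists (86 genes in the table) the first 3 entries and the 3 compared entries farthest from a ratio of 0, and the 5 genes most like Cd14, leaving out clone names, predicted genes and small RNAs. Alternatives were pseudocounts of 0.1 and 5, other filters, 3 scalings, means for medians, Cd14 left out and, added later, centring in 20 bins of GC content.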

Additional observations from a re-analysis of the deposited data

How the results depend on the processing

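No paired analysis was possible because each genotype had a single library without a replicate number, so that no library could be left out either. Centring by GC content was chosen after seeing the data. Of the 10 genes 6 were higher by at least 2-fold at the main setting. At the alternatives between 5 (pseudocount of 5) and 8 (pseudocount of 0.1) were higher, with 0 lower at each. The 8 include Tlr8 (log2 ratio of 1.28), which had 6 reads and a mean level below 1. Among members with a mean of at least 1, 4 surface and 3 endosomal genes were higher with a pseudocount of 0.1. The counts over all genes given below cover only genes with such a mean. A pseudocount of 5 shrinks low values by construction. With it the surface median log2 ratio was 0.84, the endosomal median 1.16 and their difference -0.33, and 255 genes were higher and 603 lower. With a pseudocount of 0.1 the endosomal median was 2.22, and 527 genes were higher and 1327 lower. Scaling the MMP9 KO library so that the median log2 ratio was 0 (a log2 shift of 0.18), with a trimmed mean (0.18) or to the same sum (0.29) gave surface medians of 1.23, 1.23 and 1.33. Equal sums also gave an endosomal median of 2.12, with 674 genes higher and 684 lower, and GC centring gave 562 higher and 701 lower. The mean over surface members was 1.26. Higher genes made up 29.5% of those past 2-fold as deposited, 41.4% with a median of 0, 41.7% with a trimmed mean and 49.6% with equal sums. Of 60 alternative values of the 10 genes 32 stayed inside their counting intervals and 28 left them. Those inside include the values of Tlr5, which without a read stayed between 0 and 0.05. Leaving an interval also depends on its width and so on the number of reads, so the tally does not measure stability. None past 2-fold changed sign, which scalings of this size and pseudocounts could hardly have done. Medians of the surface partners, endosomal partners and adaptors, all near 0, turned positive under some scalings.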
